A study of Mus musculus with 8 samples.

Results

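The cells described here are wound macrophages with high transcripts of Igf1 or Gdf15, chosen by a rule on the measured counts of each cell. A cell was a member when, per 10000 non-mitochondrial UMIs, it held at least 20 UMIs of C1qa, C1qb and C1qc together, at least 4 of Igf1 and Gdf15 together, under 8 of Gpnmb, under 5 of Lyve1, Cd163, Cd209f and Fcna together and under 20 of Ctsk. The rule found 3092 members among 35158 cells, or 8.79% of all cells and 33.6% of the 9207 cells that reached the C1q threshold, which are called C1q-high here. The other 6115 C1q-high cells failed at least 1 further part of the rule. Because Igf1, Gdf15, C1q and the excluded genes chose the cells, their levels and the share of members are descriptions without a test.

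The study sampled CD45+ immune cells from back wounds to compare healing in diabetic and normal skin over time. Male C57BL/6J mice were made diabetic by STZ, which destroys insulin-producing beta cells, at 120 mg/kg and 4 weeks of age after fasting, with a blood glucose of at least 16.5 mmol/L, and control mice were wounded alongside them. All mice carried full-thickness back wounds 5 mm wide, taken on days 1, 3, 5 and 7, and live CD45+ cells were sorted with calcein AM. The wounds of 5 mice were pooled for each of the 8 libraries, so each wound type had 1 library on each day, and no test between wound types is possible within a day. STZ models the loss of insulin and not obesity or insulin resistance.

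IGF1 is a secreted growth factor of the insulin family that acts through the receptor IGF1R and is made by macrophages in healing muscle and skin. GDF15 is a secreted protein of the TGF-beta superfamily whose transcription rises with cellular stress, and its known receptor GFRAL is found in the hindbrain. C1q starts the classical complement pathway and is made by tissue macrophages, which replace neutrophils and monocytes as a wound matures, take up dead cells and release growth factors and cytokines.

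The tables held between 19236522 and 33842509 UMIs per library, and 3266 to 5436 cells per library passed the filter of over 200 genes and under 20% mitochondrial UMIs. The control day 5 library lost 28.6% of its barcodes to this filter. On days 1, 3, 5 and 7 the diabetic libraries held 14, 134, 89 and 405 members, and the control libraries 22, 265, 794 and 1369. Members' median UMI count lay between 4348.5 and 10373, and it was above that of the other C1q-high cells in every library except diabetic day 1. All 12 macrophage markers of a fixed list were detected in the members of the 6 libraries of days 3 to 7. Their summed level was 22343 to 26672 CPM, the UMIs of a gene scaled to the total UMIs of the same cells. The list includes C1qa, C1qb and C1qc, by which the rule chose the cells, so this level was in part fixed by the rule. No cell had the same counts as a cell of another library, and the barcodes themselves could not be compared because cells are numbered in the tables.

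Most members were taken in by Gdf15. A Gdf15 UMI was found in 94.6% of members and an Igf1 UMI in 58.6%, and 1644 members had both, 1281 had Gdf15 without Igf1 and 167 had Igf1 without Gdf15. In all, 339 members met the rule on a single UMI of either gene. With each cell thinned to 1000 UMIs, which left out 148 shallower members, Igf1 was seen in 15.4%, 11.6%, 10.6% and 32.0% of diabetic members on days 1, 3, 5 and 7 and in 9.52%, 10.3%, 29.1% and 26.1% of control members. The unthinned shares were 27.6%, 38.2% and 66.4% in diabetic members on days 3, 5 and 7, with 7 of 14 on day 1, and 13.6%, 28.3%, 67.8% and 61.9% in control members. Igf1-bearing members were thus a larger part from day 5 in control wounds and on day 7 in diabetic wounds, while the thinned share with Gdf15 stayed between 46.2% and 68.1%.

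The cells on either side of the thresholds were compared in the markers outside the rule. The 299 members within 25% above the Igf1 and Gdf15 threshold had Ccl8 at 434 CPM, Vcam1 at 95 CPM and Mertk at 84.4 CPM. The 383 cells that met every other part of the rule and lay within 25% below the threshold had Ccl8 at 387 CPM, Vcam1 at 66.7 CPM and Mertk at 72.2 CPM. Near the C1q threshold, 248 members lay within 25% above it and 360 other cells within 25% below it. Ccl8 was at 196 CPM just above and 189 CPM just below the C1q threshold, whereas Vcam1 was lower just above it, at 44.2 against 59.7 CPM. Across the Gpnmb threshold Ccl8 was at 548 CPM in the 204 members just inside and at 859 CPM in the 157 cells just outside, and Vcam1 at 157 and 121 CPM. Across the threshold on Lyve1, Cd163, Cd209f and Fcna, Ccl8 was at 2809 CPM in 79 members and 2176 CPM in 48 other cells. The Ctsk threshold had 8 members and 13 other cells beside it, too few to describe.

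Members were a small part of the day 1 wound and the most frequent late in the control wound. In diabetic wounds they made up 0.294% of cells on day 1 (exact binomial 95% interval 0.161% to 0.493%), 2.47% on day 3 (2.07% to 2.91%), 2.13% on day 5 (1.71% to 2.61%) and 11.1% on day 7 (10.1% to 12.2%). In control wounds they made up 0.499% on day 1 (0.313% to 0.754%), 5.52% on day 3 (4.89% to 6.20%), 24.3% on day 5 (22.8% to 25.8%) and 29.4% on day 7 (28.1% to 30.8%). The intervals of the wound types overlapped on day 1 and were apart on days 3, 5 and 7, although they cover counting error only and not the spread between mice. The share was lower in the diabetic wound on 4 of 4 days, by a mean of 10.9 percentage points. The order turned on day 1 when members were taken by Igf1 alone (a difference of 0.0177 points), and on day 7 when members with over 10 marker UMIs of other cell types per 10000 were left out (0.633 points, with 27 diabetic and 5 control members left). Days 5 and 7 held 85.9% of all members, beside 88.1% of the 151 C1q-high cells set aside for high Ctsk, 80.8% of the 1326 set aside for high Gpnmb, 65.6% of the 1038 set aside for high Lyve1, Cd163, Cd209f or Fcna and 54.8% of the 3698 with low Igf1 and Gdf15.

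The gap was widest on day 5, when the control share was 11.4 times the diabetic share, against 1.69 times on day 1, 2.24 times on day 3 and 2.65 times on day 7. Part of it lay in the number of C1q-high cells, which were 10.8% of diabetic and 65.2% of control cells on day 5. Within C1q-high cells the members still took 6.67%, 11.2%, 19.6% and 34.6% in the diabetic wound and 7.43%, 25.8%, 37.3% and 50.1% in the control wound, lower in the diabetic wound on 4 of 4 days, with a mean difference of 12.1 percentage points. Thus the diabetic share of C1q-high cells on day 5 was below the control share on day 3.

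**Figure D1:**
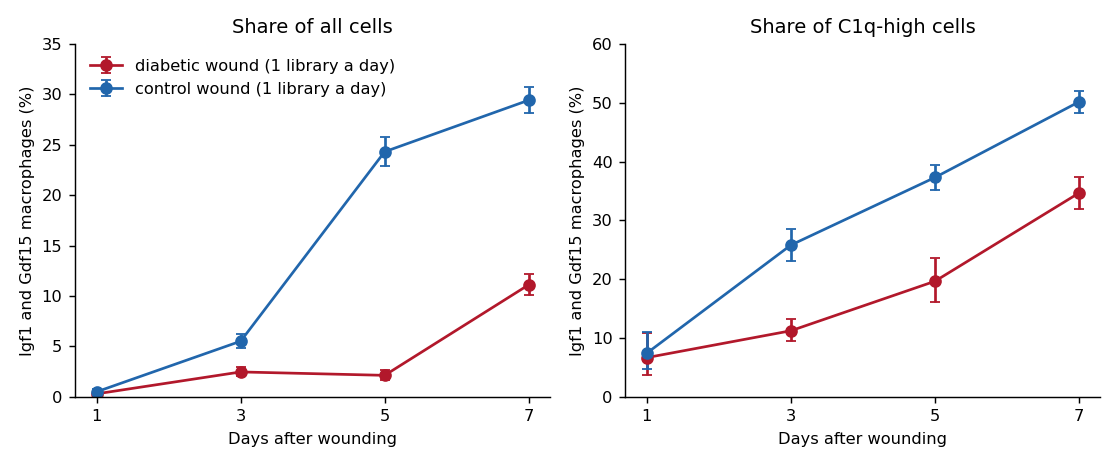
Share of Igf1 and Gdf15 macrophages among all cells (left) and among C1q-high cells (right), in percent, against days after wounding. Each point is 1 library and each bar an exact binomial 95% interval; the control line reaches 24.3% of all cells on day 5, when the diabetic line is at 2.13%.

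Transcripts of the same genes in other cell types moved with these shares. Cells with T cell markers, which should hold neither Igf1 nor C1q, had a summed Igf1 and Gdf15 level of 0.239, 0.575, 0.342 and 1.49 UMIs per 10000 in the diabetic libraries and 0.143, 0.498, 2.98 and 3.19 in the control libraries. Their C1q level was 2.14, 13.9, 3.35 and 9.29 UMIs per 10000 in the diabetic and 1.70, 5.00, 21.1 and 17.5 in the control libraries. On control day 5 it was thus above the C1q threshold of 20. The Igf1 and Gdf15 levels were all below their threshold of 4. Even so, 10 of 175 T cell marker cells (5.71%) on control day 5 and 51 of 493 (10.3%) on control day 7 passed the whole rule. On diabetic day 7, 17 of 719 (2.36%) passed it. Of neutrophil marker cells, 5 of 191 (2.62%) on control day 5 and 86 of 722 (11.9%) on control day 7 passed it. On diabetic day 7 it was 6 of 377 (1.59%). On control day 7 a Gdf15 UMI was seen in 60.4% of T cell marker cells at a median of 3774 UMIs, and in 96.9% of members at a median of 7132 UMIs. The part of RNA from outside the cells in the shares of members and of C1q-high cells was not tested. Without members that had 20 or more T cell or neutrophil marker UMIs per 10000, a choice made after seeing the data, the shares were 2.08% in the diabetic and 23.9% in the control wound on day 5, and 10.5% and 26.5% on day 7. A stricter filter, which left out members with over 10 marker UMIs of other cell types per 10000, left 0.287% and 20.5% on day 5 and 0.741% and 0.107% on day 7.

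The label of these cells names 3 genes that the rule did not use: Ccl8, a chemokine for monocytes and T cells, Vcam1, an adhesion molecule that binds integrin alpha4, and Mertk, a receptor for the uptake of dead cells. All 3 were found in members, with a UMI in 66.7%, 24.3% and 40.8% of them. Over the 7 libraries with at least 20 members, Vcam1 was higher in members than in the other C1q-high cells in 6, all but control day 1, for example at 184 against 89.3 CPM on control day 5 and at 134 against 93.6 CPM on diabetic day 7. Ccl8 was higher in members in 2 of these 7 libraries, with a median log2 ratio of -0.41, and Mertk in 5 of 7, with a median of 0.07. In cells with high Lyve1, Cd163, Cd209f or Fcna, a set here called resident gene-high, Ccl8 reached 7523 CPM on diabetic day 5 and 7089 CPM on control day 5, and it exceeded the level in members in all 8 libraries. Vcam1 was higher in members than in resident gene-high cells in 4 of 8 libraries and Mertk in 2 of 8. The cells are therefore called here by the genes of the rule, Igf1 and Gdf15, and not by Ccl8, Vcam1 or Mertk. Igf1 was not highest in members either: on days 3, 5 and 7 it stood at 181, 511 and 563 CPM in resident gene-high cells of diabetic and at 340, 501 and 462 CPM in those of control wounds, above members in all 6 libraries. In Gpnmb-high cells Igf1 was below members on day 3 and above them on days 5 and 7. On days 5 and 7 it stood there at 601 and 564 CPM in diabetic and at 474 and 541 CPM in control wounds. Gdf15, on which members were also chosen, was higher in members than in resident gene-high and Gpnmb-high cells in all 8 libraries.

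Gdf15 was the most even of the 5 marker genes across libraries, which the rule itself in part fixes. By Gdf15 alone, 79.1% of members met the threshold of 4. In members, Gdf15 stood at 863, 1015, 1007 and 1114 CPM on days 1, 3, 5 and 7 in diabetic wounds and at 945, 1322, 1179 and 1197 CPM in control wounds. Igf1 stood at 175, 108, 173 and 519 CPM in diabetic and at 224, 153, 426 and 403 CPM in control wounds. By summed level the lowest Igf1 was on day 3 in both wound types. The day 1 levels rest on 13 UMIs in 14 diabetic and 36 UMIs in 22 control members. Their counting intervals, 93.4 to 300 and 157 to 310 CPM, overlapped those of day 3, 88.9 to 131 and 136 to 173 CPM. The share of members with an Igf1 UMI was lower on control day 1 (13.6%) than on control day 3 (28.3%). In diabetic wounds it was 50% and 27.6%. A dip on day 3 was thus not shown. The level above 400 CPM came on day 5 in control and on day 7 in diabetic members. In diabetic wounds Igf1 was already at 601 CPM in 47 Gpnmb-high and at 511 CPM in 29 resident gene-high cells on day 5.

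Ccl8 stood at 688, 778, 364 and 1483 CPM in diabetic members and at 68.4, 274, 679 and 790 CPM in control members. The diabetic level was the higher on days 1, 3 and 7 and the lower on day 5, so the wound types overlapped. Vcam1 stood at 216, 75.0, 83.2 and 134 CPM in diabetic members. In control members it was at 26.6, 184 and 169 CPM on days 3, 5 and 7, and at 0 of 160800 UMIs on day 1, where a count of 0 allows up to 18.7 CPM. Mertk stood at 40.5, 92.2, 63.8 and 90.5 CPM in diabetic and at 18.7, 73.7, 106 and 130 CPM in control members, and the control level was the higher on days 5 and 7. The day 1 values rest on 14 and 22 cells.

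In the edgeR tests described below, none of Ccl8, Vcam1 and Mertk passed between wound types (log2 differences of 0.57, -0.12 and -0.29, Benjamini-Hochberg adjusted p of 0.62, 0.95 and 0.67), or with day (0.39, 0.45 and 0.17 per day, adjusted p of 0.11, 0.19 and 0.51). In T cell marker cells a Ccl8 UMI was seen in 57.9% on diabetic day 7 and 46.0% on control day 7, and the part of RNA from outside the cells in the Ccl8 level of members was not tested. On the genome build GRCm38, Igf1 lies at chr10:87858265-87937042 on the plus strand, Gdf15 at chr8:70629393-70632456 on the minus strand, Ccl8 at chr11:82115185-82116799 on the plus strand, Vcam1 at chr3:116109949-116129688 on the minus strand and Mertk at chr2:128698956-128802894 on the plus strand.

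**Figure D2:**
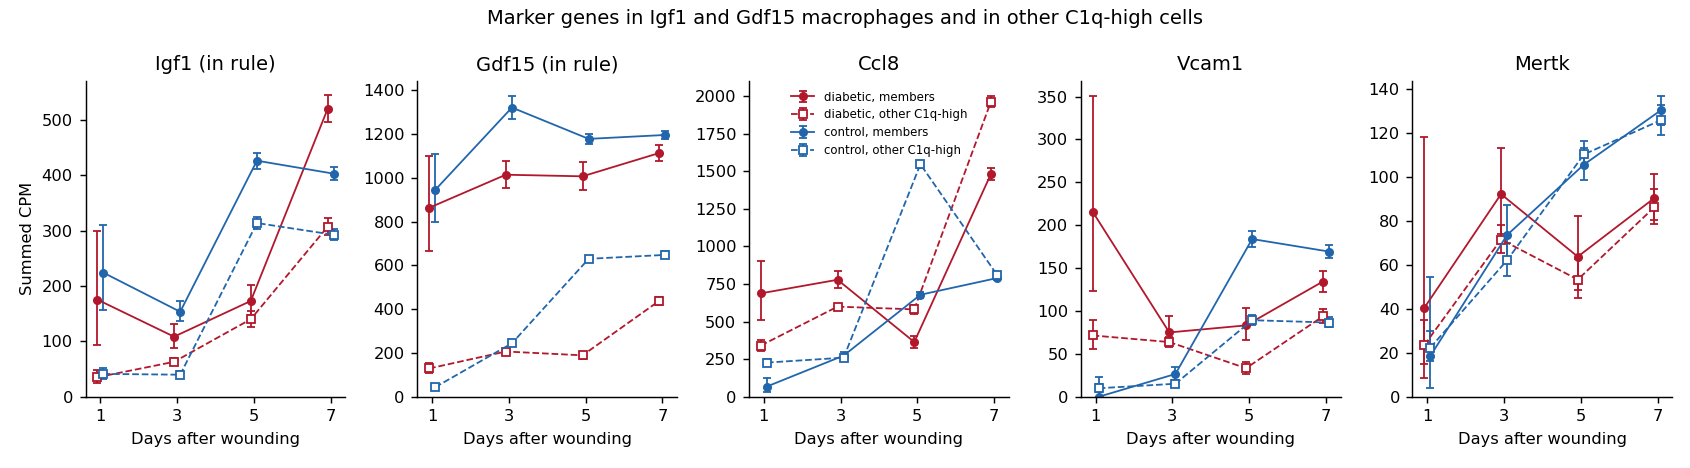
Summed level in CPM of Igf1, Gdf15, Ccl8, Vcam1 and Mertk against days after wounding, in members (filled circles) and other C1q-high cells (open squares) of each library, with exact Poisson intervals for counting error. Igf1 in members is first above 400 CPM on day 5 in control and on day 7 in diabetic wounds, and Ccl8 on control day 5 is at 679 CPM in members and 1547 CPM in the other C1q-high cells.

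Members were next compared with the other C1q-high cells of the same library, as a description, since the same counts chose the classes. In the 7 libraries with at least 20 cells of both, 7730 genes outside the rule were compared. These had at least 50 UMIs in all and a UMI in both classes in every library, so genes absent from any of them were left out. Of these, 0 genes (0%) were at least 2-fold higher and 0 (0%) at least 2-fold lower in members in every library. At any size, 172 genes were higher and 231 lower in all 7 libraries. Against the other C1q-high cells taken as 1 class, none of the genes compared thus differed 2-fold in every library. Against the separate classes below some did.

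The 10 genes whose weakest ratio was farthest above 0 included, by median, Fam26f (median log2 ratio 0.91, range 0.34 to 1.06), Pparg (0.84, 0.31 to 1.20), Adgre4 (0.73, 0.26 to 3.06) and Fcrls (0.60, 0.24 to 0.91). Pparg encodes a nuclear receptor that governs lipid metabolism in macrophages, and Adgre4 and Fcrls encode surface receptors of myeloid cells. The others were Tmem176b (0.57) and Tmem176a (0.45), a pair of neighbouring membrane protein genes, Dnah2 (0.54, with the highest weakest ratio of all), Cd300ld3 (0.53), Slamf7 (0.49) and Cd40 (0.27), a receptor for T cell help. The chemokine receptor Cx3cr1 (0.74, 0.05 to 1.64), the efferocytosis receptor Axl (0.65, 0.09 to 1.79) and the growth factor gene Pdgfa (0.60, 0.11 to 1.32) were also higher in all 7 libraries. The antigen presentation genes Cd74, H2-Aa and H2-Eb1 had median log2 ratios of 0.32, 0.30 and 0.32 and were higher in all 7, the only 3 to be so of 11 MHC class II and costimulation genes compared.

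In the other direction, the lower genes by the same measure included Vcan (median log2 ratio -1.03, range -1.17 to -0.40), a matrix proteoglycan gene of monocytes, Rnf128 (-0.76), Ifitm6 (-0.70) and Fn1 (-0.59, -0.92 to -0.39), the fibronectin gene. Fabp5, a fatty acid carrier, was at -0.53 and Eno1, a glycolytic enzyme, at -0.42. Members thus had less Vcan and Fn1, and more Pparg, Axl, Cx3cr1, Cd74, H2-Aa and H2-Eb1, than the other C1q-high cells beside them.

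**Figure D3:**
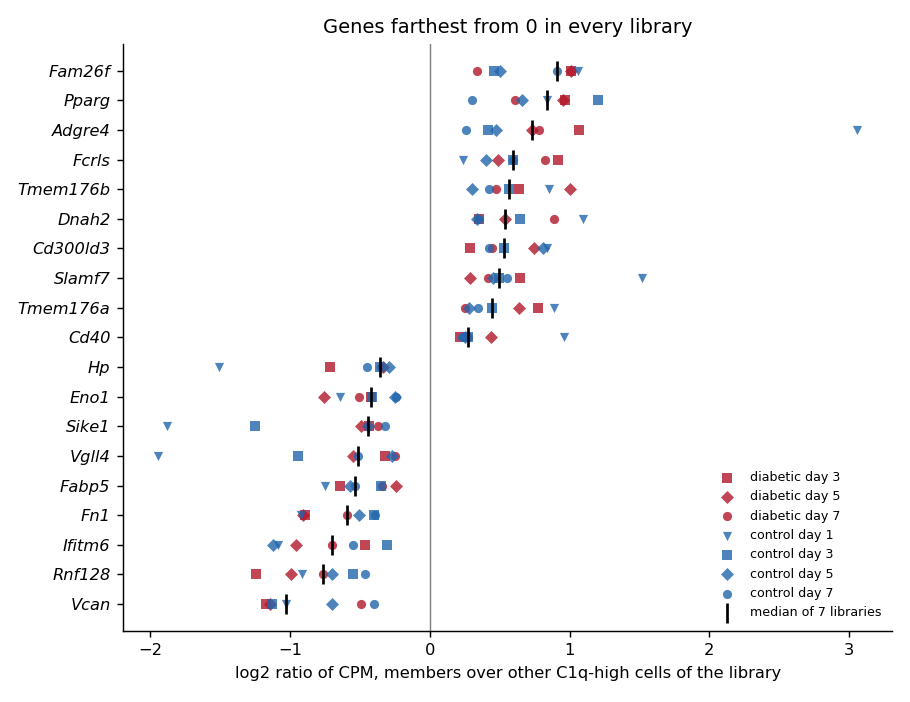
Log2 ratio of the level in members over that in the other C1q-high cells of the same library for 10 higher and 9 lower genes whose weakest ratio was farthest from 0, 7 libraries as points and their median as a bar. Ordered by median, Fam26f and Pparg come first among the higher genes and Vcan lies lowest, and no gene lies beyond -1 or 1 in every library.

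The neighbours differed from members in different ways, again over genes with a UMI in both classes in every library compared. Against the 3698 C1q-high cells low in Igf1 and Gdf15, 1 gene of 7694 (0.013%) was at least 2-fold lower in members in every library, Vcan (median -1.33), and 0 (0%) were at least 2-fold higher. Gas6, a bridging ligand of MERTK and AXL, was at 1.28 (0.54 to 1.89), Fcrls at 0.98, Pparg at 0.89 and the lipase gene Lpl at 0.65, all higher in members, while Fn1 was at -1.13.

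Against the 1326 Gpnmb-high cells, 5 of 8642 genes (0.0579%) were at least 2-fold higher and 4 (0.0463%) at least 2-fold lower in members in all 6 libraries. Tmem176a (median 1.35), its neighbour Tmem176b, Ccnd1 (1.53), Hspa1b (1.84) and Ighm (1.67) were the higher genes. Atp6v0d2, a proton pump subunit of lysosomes and osteoclasts, was lower at -1.88, as were Fabp5 at -1.61, Rnf128 at -1.99 and Plpp3 at -1.63. Against the 1038 resident gene-high cells, 5 of 6587 genes (0.0759%) were at least 2-fold higher and 17 (0.258%) at least 2-fold lower in all 7 libraries. Axl was higher in members (1.95, 1.51 to 3.62), and Ccl8 (-2.97, -4.37 to -1.58), the lectin gene Clec10a (-2.73), Cbr2 (-2.56) and the complement gene C4b (-2.70) were lower. Ctsk-high cells could be set beside members in 1 library only, control day 5, where 583 of 8237 genes (7.08%) were at least 2-fold higher and 602 (7.31%) at least 2-fold lower in members.

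Diabetic and control members were compared with edgeR's quasi-likelihood test on UMIs summed over members per library, with day as a term, on days 3, 5 and 7, the days on which both libraries held at least 20 members. The 3 libraries of each wound type are different days, so the spread in this test is that between days after a common day effect is removed, and it includes no spread between pools of mice on the same day. Of 9602 genes, 9 passed an adjusted p of 0.05 (0.0937%), 8 higher (0.0833%) and 1 lower (0.0104%) in diabetic members, and 927 (9.65%) had an unadjusted p under 0.05. The 8 higher genes were 2 interferon-stimulated genes, Rsad2 and Gbp2, the kinase gene Jak2 of interferon and cytokine receptors, the checkpoint ligand gene Cd274 (PD-L1), and Clec4e, Il1rn, Inhba and Chil3.

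Rsad2, which encodes the antiviral enzyme viperin, stood at 325, 262 and 370 CPM in diabetic members on days 3, 5 and 7 and at 129, 87.7 and 139 CPM in control members. Every diabetic library was above every control library, with a log2 difference of 1.48 (SE 0.13, edgeR adjusted p = 0.00269). Gbp2, an interferon-induced GTPase gene, stood at 71.0, 98.4 and 84.3 CPM in diabetic and at 35.5, 47.9 and 29.7 CPM in control members, again without overlap (log2 difference 1.25, SE 0.18, edgeR adjusted p = 0.0336). Day 1 did not enter the test, and there Rsad2 was at 324 CPM in the 14 diabetic and at 1026 CPM in the 22 control members, the opposite order, and Gbp2 at 80.9 and 118 CPM. Jak2, Cd274 and Clec4e were likewise lower in diabetic members on day 1 (40.5 against 211 CPM, 175 against 367 CPM and 1403 against 2463 CPM), while Il1rn, Inhba and Chil3 were higher (2739 against 1536 CPM, 243 against 43.5 CPM and 675 against 218 CPM).

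Jak2 stood at 189, 165 and 218 CPM in diabetic and at 103, 98.2 and 99.2 CPM in control members (log2 difference 0.97, SE 0.14, edgeR adjusted p = 0.0356). Cd274, whose product restrains T cells through PD-1, stood at 212, 242 and 296 CPM against 87.0, 140 and 141 CPM (1.08, SE 0.14, edgeR adjusted p = 0.0290). The ranges of the wound types were apart for both genes on these days.

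Clec4e, the receptor Mincle for mycobacterial and damaged-cell lipids, stood at 1808, 1737 and 1216 CPM in diabetic and at 994, 835 and 800 CPM in control members (log2 difference 0.88, SE 0.12, edgeR adjusted p = 0.0336). Il1rn, the antagonist of the IL-1 receptor, stood at 1502, 1244 and 1468 CPM against 997, 742 and 739 CPM (0.82, SE 0.12, edgeR adjusted p = 0.0354). Inhba, which encodes the subunit of activin A, stood at 54.7, 48.6 and 89.9 CPM against 16.6, 21.4 and 28.6 CPM (1.56, SE 0.19, edgeR adjusted p = 0.0226). On days 3, 5 and 7, no library of one wound type reached the range of the other for these 3 genes.

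Chil3, a chitinase-like secreted protein of monocytes and alternatively activated macrophages, had the largest difference of the 8 and the least even levels, at 654, 32.4 and 211 CPM in diabetic and 114, 21.8 and 28.1 CPM in control members (log2 difference 2.24, SE 0.33, edgeR adjusted p = 0.0354). It was higher in the diabetic library on each of the 3 days, but the wound types overlapped across days. Igha, the constant region of immunoglobulin A, was the 1 lower gene, with 0, 0 and 1 UMI in diabetic and 34, 2 and 417 UMIs in control members on days 3, 5 and 7. Its control level was 18.8 CPM on day 3 and 35.8 CPM on day 7 in members, and 20.4 and 36.8 CPM in T cell marker cells of the same libraries, so it was not particular to macrophages.

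All 9 genes had a mean level in neutrophil or T cell marker cells above that in members. In neutrophil marker cells of days 3, 5 and 7, Clec4e stood at 7042, 7095 and 6894 CPM in diabetic and at 5885, 5432 and 4266 CPM in control libraries, and Cd274 at 723, 761 and 707 CPM against 357, 344 and 441 CPM. Rsad2 stood at 201, 424 and 313 CPM in diabetic and at 274, 201 and 201 CPM in control neutrophil marker cells, so on day 3 the order was opposite to that in members. All 8 neutrophil markers were detected in members of every library of days 3 to 7, at a summed level of 1181 to 2445 CPM in diabetic and 254 to 1906 CPM in control members, and the part of neutrophil RNA in these differences was not tested. Without members that had 20 or more T cell or neutrophil marker UMIs per 10000, 15 genes passed, the same 9 among them. With a C1q threshold of 40, 1 gene passed and all 8 higher genes were lost, and without the top 5% of Scrublet scores 4 of the 9 passed. The differences of the 8 higher genes kept their direction in all 20 alternatives, with log2 differences of 1.16 to 1.53 for Rsad2, 0.75 to 1.00 for Clec4e and 0.71 to 0.99 for Il1rn. The widest ranges of the 8 were 0.87 to 2.29 for Gbp2 and 1.76 to 3.15 for Chil3. Without the day term 0 genes passed, without the diabetic day 7 library 3 of the 9 still passed, and without the control day 7 library 4 of the 9.

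**Figure D4:**
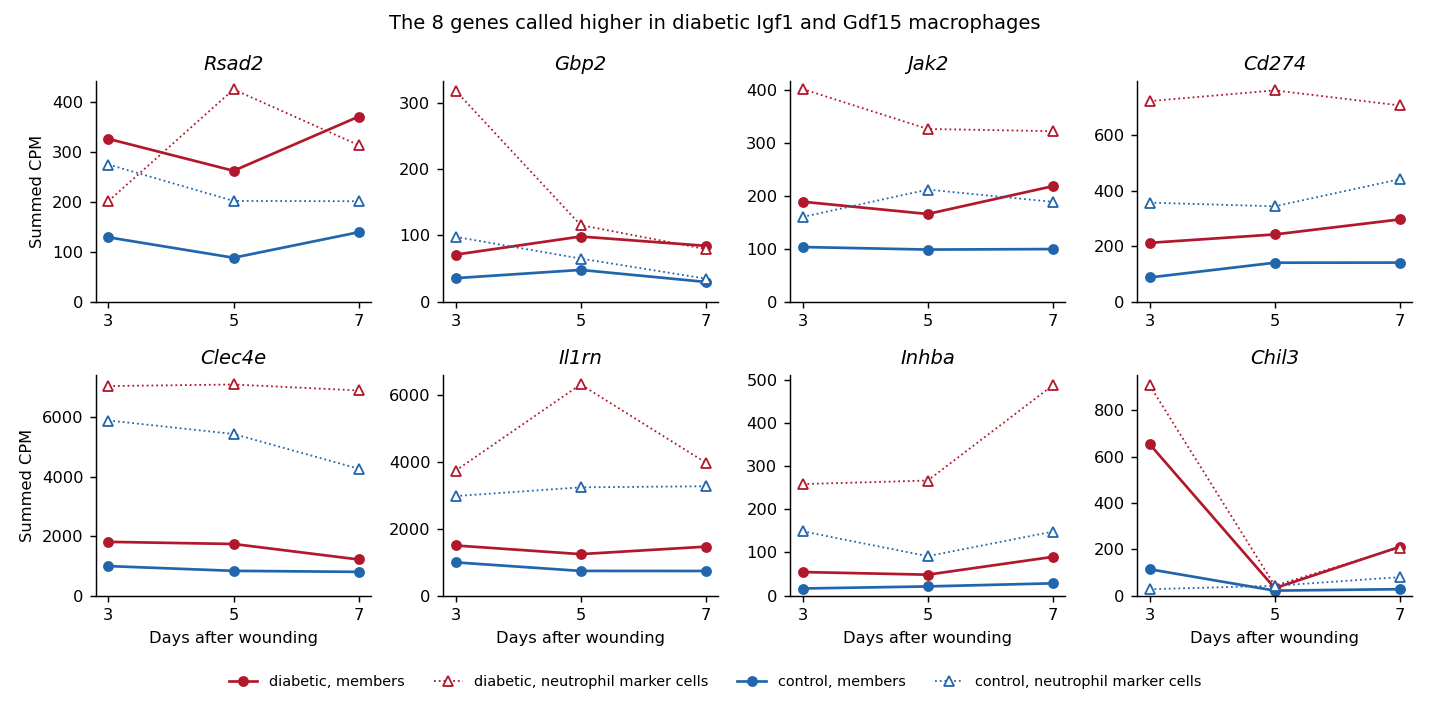
Summed level in CPM of the 8 genes higher in diabetic members on days 3, 5 and 7, in members (filled circles, solid lines) and neutrophil marker cells (open triangles, dotted lines) of the diabetic (red) and control (blue) libraries, 1 library per point and axes from 0. The red circles lie above the blue ones on each day, and most neutrophil marker levels lie above those of members.

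The pathway lists showed how far these genes stood in company, beside a median log2 difference of -0.01 over all 9602 genes. Of 24 inflammatory genes tested, 3 rose (Clec4e, Il1rn and Chil3), 0 fell and 23 had a positive difference, with a median of 0.68. Il1a stood at 233, 190 and 195 CPM in diabetic and at 85.3, 118 and 123 CPM in control members, Acod1, the enzyme that makes itaconate, at 660, 281 and 305 CPM against 202, 73.8 and 235 CPM, and Slpi, a protease inhibitor, at 743, 706 and 400 CPM against 322, 91.4 and 314 CPM. None of the 3 passed the test (edgeR adjusted p of 0.09, 0.09 and 0.20), although their wound types did not overlap on days 3, 5 and 7. On day 1 Il1a and Acod1 had the opposite order (148 against 410 CPM and 432 against 746 CPM), and Slpi was at 2010 against 1070 CPM. Of 6 monocyte markers 5 had a positive difference between wound types (median 0.61, with Chil3 past the threshold), of 8 neutrophil markers 5 (0.58) and of 8 T cell markers 7 (0.44), and their part in the inflammatory list was not tested. In all, 7 of the 24 genes were higher and 1 was lower in diabetic members without overlap, as here and below over days 3, 5 and 7, where 6.14% of all genes were higher and 9.54% lower in that way.

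Of 20 interferon-stimulated genes, 2 rose (Rsad2 and Gbp2), 0 fell and 17 had a positive difference, with a median of 0.45. Isg15, a ubiquitin-like modifier, stood at 123, 102 and 149 CPM in diabetic and at 98.6, 56.4 and 72.8 CPM in control members, and Ifit2, an RNA-binding antiviral protein, at 42.6, 72.4 and 46.1 CPM against 26.6, 20.8 and 23.9 CPM, both without overlap on these days. On day 1 Ifit2 had the opposite order, at 13.5 against 74.6 CPM, and Isg15 was at 553 against 535 CPM. They did not pass the test (edgeR adjusted p of 0.16 and 0.11). The list was not uniform, since Stat2, Irf1, Ifitm3 and Ly6e had log2 differences between -0.05 and 0.02.

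Of 14 MHC class II and costimulation genes, 0 passed the test and 13 had a positive difference, with a median of 0.41. H2-Aa stood at 5705, 6162 and 6790 CPM in diabetic and at 6301, 3735 and 4299 CPM in control members, so the diabetic level was the lower on day 3 and the higher on days 5 and 7. Cd74, the invariant chain, had the same order, with 4718, 5915 and 6585 CPM against 6253, 3385 and 4575 CPM. Neither gene passed (edgeR adjusted p of 0.38 and 0.59). Of 8 dendritic cell markers tested, all 8 had a positive difference (median 0.56) and 0 passed, and their summed level was 184 to 349 CPM in diabetic and 122 to 187 CPM in control members, whose part in the MHC class II levels was not tested.

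Of 18 chemokine genes, 0 passed and 15 had a positive difference, with a median of 0.21. The neutrophil chemokine Cxcl2 was the most abundant, at 13326, 12931 and 12578 CPM in diabetic and 12894, 10988 and 10200 CPM in control members. Cxcl3 stood at 592, 601 and 509 CPM against 161, 332 and 291 CPM, without overlap, and did not pass (edgeR adjusted p = 0.0549). Of 7 chemokine receptors 0 passed (median 0.16), and Ccr1, a receptor for CCL3, had a log2 difference of 0.52 without overlap. Of 16 adhesion genes, Vcam1 among them, 0 passed (median 0.07).

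Growth factor genes, which give these cells their name, did not move together. Without Igf1 and Gdf15, 19 were tested, of which 0 passed, 10 were positive and 9 negative, with a median of 0.03. Il10, an anti-inflammatory cytokine, stood at 1284, 978 and 959 CPM in diabetic and at 741, 886 and 502 CPM in control members (log2 difference 0.67, edgeR adjusted p = 0.17), with every diabetic library above every control one. Spp1 (osteopontin) stood at 644, 833 and 553 CPM against 739, 1166 and 787 CPM (-0.36, edgeR adjusted p = 0.35), lower in the diabetic library on each day. Pdgfa, Vegfa, Tgfb1 and Hbegf had log2 differences of 0.52, -0.05, 0.19 and -0.39, and did not pass.

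The axes on either side of the naming genes were also without a call. In the IGF list without Igf1, 0 of 7 genes passed, and the median was -0.05. The receptor gene Igf1r stood at 31.4, 42.2 and 35.8 CPM in diabetic and 27.7, 22.2 and 37.8 CPM in control members, and Igfbp4, an IGF-binding protein gene, at 155, 215 and 106 CPM against 215, 254 and 217 CPM (log2 difference -0.55, edgeR adjusted p = 0.31). Of the 11 other genes tested of the stress response that Gdf15 belongs to, 0 passed and the median was -0.13. The stress regulators Atf4 and Atf3 were at -0.14 and -0.27, and Ddit4, an inhibitor of mTORC1, was at 0.91 (35.5, 36.8 and 52.9 CPM against 17.7, 23.5 and 27.0 CPM, edgeR adjusted p = 0.16).

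Of 18 efferocytosis genes 0 passed, 7 were positive and 11 negative, with a median of -0.09, and without overlap 1 was higher (Abca1) and 2 were lower (Gas6 and Stab1). Gas6 stood at 137, 159 and 148 CPM in diabetic and at 166, 249 and 214 CPM in control members, the scavenger receptor Stab1 at 287, 308 and 289 CPM against 329, 446 and 433 CPM, and Cd36 at 184, 516 and 626 CPM against 256, 912 and 723 CPM. All 3 were lower in the diabetic library on each of these days and none passed (edgeR adjusted p of 0.31, 0.34 and 0.31), while Axl was at 0.34. On day 1 all 3 were higher in diabetic members (162 against 43.5 CPM, 418 against 224 CPM and 607 against 398 CPM). Of 14 iron and heme genes, 0 passed and 11 were negative, with a median of -0.33. The iron exporter gene Slc40a1 (ferroportin) stood at 14.2, 8.65 and 17.2 CPM in diabetic and at 17.2, 95.9 and 53.7 CPM in control members, a log2 difference of -1.80 (SE 0.39, edgeR adjusted p = 0.16).

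In the cell cycle list 0 of 18 genes passed and 16 were negative, with a median of -0.47. Top2a stood at 7.10, 1.08 and 30.5 CPM in diabetic and at 15.0, 47.3 and 39.8 CPM in control members, whereas Mki67 stood at 88.2, 71.3 and 143 CPM against 50.4, 104 and 97.4 CPM. Mki67 and Cenpa were the 2 genes of this list with a positive difference. Immediate early genes (0 of 21 passed, median -0.27), lipid handling (0 of 19, -0.10), lysosome (0 of 24, -0.01), complement (0 of 8, -0.02), resident genes (0 of 13, -0.14), macrophage transcription factors (0 of 25, -0.07) and heat shock genes (0 of 15, -0.10) completed the set, with genes of the rule left out of counts and medians. Of the 21 immediate early genes, 5 were lower in diabetic members without overlap (Fos, Fosb, Jun, Egr1 and Klf2) and 1 was higher (Egr2). Of all genes, 9.54% were lower and 6.14% higher in that way. Egr1 had a log2 difference of -0.70 (edgeR adjusted p = 0.087), and on day 1 it had the opposite order (1619 against 840 CPM). Over 20 alternative settings the median stayed positive for the inflammatory (0.34 to 0.74), interferon-stimulated (0.32 to 0.57) and MHC class II lists (0.08 to 0.66), and it took either sign for the cell cycle (-0.90 to 0.17), iron and heme (-0.46 to 0.02) and immediate early lists (-0.50 to 0.01).

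**Figure D5:**
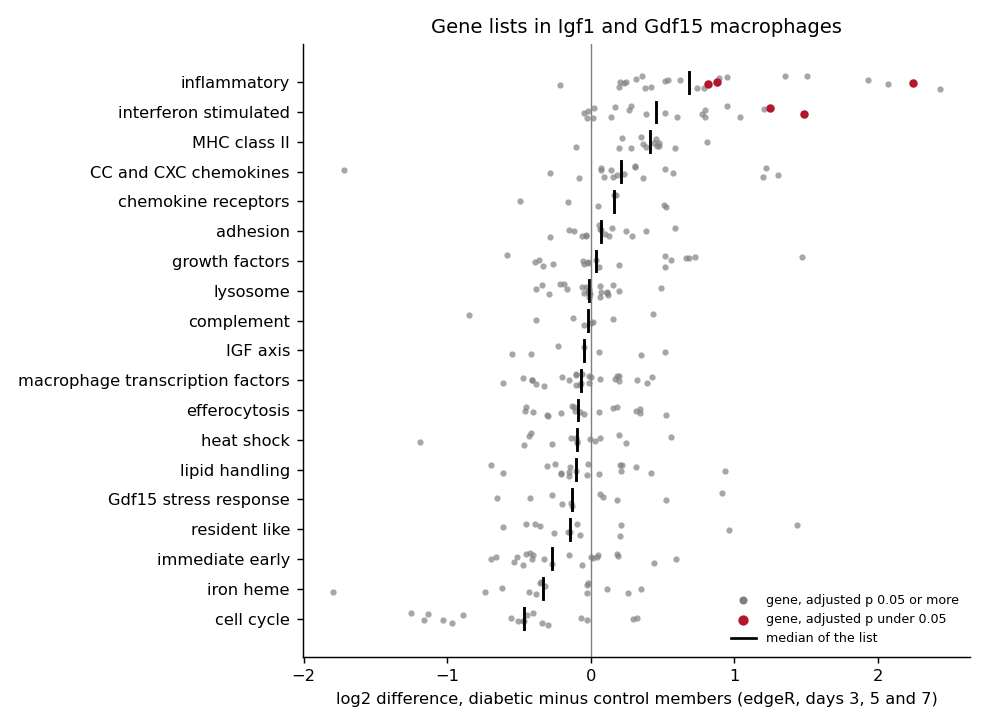
Log2 difference between diabetic and control members (edgeR, days 3, 5 and 7) of each gene in 19 lists, with genes past an adjusted p of 0.05 in red and the median of each list as a bar, genes of the rule left out. The inflammatory list has the highest median, 0.68, and the cell cycle list the lowest, -0.47.

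The time course of members was tested as a log2 change per day over 7 libraries, those above and control day 1, with wound type as a term. Of 9020 genes, 55 passed an adjusted p of 0.05 (0.61%), of which 45 rose (0.499%) and 10 fell (0.111%), and 783 (8.68%) had an unadjusted p under 0.05. The 14 diabetic day 1 members were too few to enter, and their levels are given for comparison. Among the genes that fell was Tgfbi, a TGF-beta-induced matrix protein of monocytes. It stood at 2145, 1719, 1508 and 827 CPM on days 1, 3, 5 and 7 in diabetic and at 2736, 1456, 687 and 720 CPM in control members. It fell by 0.32 per day (SE 0.05, edgeR adjusted p = 0.00583). In the other C1q-high cells Tgfbi stood at 2996, 1688, 2177 and 1042 CPM in diabetic and at 2376, 1894, 923 and 852 CPM in control wounds. The lower level on day 7 was thus not particular to members.

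Ptgs2, the inducible enzyme of prostaglandin synthesis, stood at 2132, 1832, 1122 and 1141 CPM in diabetic and at 2021, 1137, 867 and 552 CPM in control members, and fell by 0.26 per day (SE 0.04, edgeR adjusted p = 0.00831). With members taken by Igf1 alone the changes of Ptgs2 and Ppbp turned to 0.0442 and 0.0621 per day and did not pass (edgeR adjusted p of 0.978 and 0.997). Plac8, a gene of Ly6C-high monocytes, stood at 405, 167, 185 and 77.8 CPM against 902, 243, 41.6 and 70.5 CPM, and fell by 0.56 per day (SE 0.10, edgeR adjusted p = 0.0252). Ms4a4c, another monocyte gene, fell by 0.44 per day (SE 0.08, edgeR adjusted p = 0.0274). In the other C1q-high cells, Ptgs2, Plac8 and Ms4a4c were also lower on day 7 than on day 1 in both wound types. The other genes that fell were Kdr, Ppbp, Pilra, Sirpb1c, Plbd1 and Gm5150, and 5 of the 10 had a higher mean level in neutrophil marker cells than in members.

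Of 8 T cell markers tested 3 rose with day, and of 6 fibroblast markers tested 5 rose, against 0.499% of all genes. Icos, a costimulatory receptor of T cells, had the smallest adjusted p (0.87 per day, SE 0.07, edgeR adjusted p = 4.46e-05), with a mean of 44.0 CPM in members and 1952 CPM in T cell marker cells, and Foxp3, Il2ra, Ctla4, Trac and Trbc2 rose with it. Col1a1, a collagen gene of fibroblasts, stood at 27.0, 5.07, 20.5 and 136 CPM in diabetic and at 0, 16.6, 24.8 and 296 CPM in control members, and Col3a1, Postn, Lum, Sparc and Aebp1 also rose. In members the summed fibroblast markers were at 6.22 to 51.0 CPM on days 1 and 3, 63.8 to 80.1 CPM on day 5 and 409 to 789 CPM on day 7, with all 7 detected on day 7, and the summed T cell markers were highest on day 7 at 325 to 430 CPM. Of the 45 genes, 24 had their highest mean level in T cell marker cells and 21 in members, among the cells compared. On control day 7 Col1a1 was at 296 CPM in members, 230 CPM in T cell marker cells and 241 CPM in neutrophil marker cells. Col3a1 was at 206, 173 and 158 CPM in the same order. The part of RNA from other cells in the rises was not tested. Without control day 7, 10 genes passed in all, without diabetic day 7, 18, and with members by Igf1 alone, 4.

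Among genes with a higher level in members than in T cell marker cells, Glul, which makes glutamine, rose by 0.27 per day (SE 0.06, edgeR adjusted p = 0.0497), with a mean of 944 CPM in members and 371 CPM in T cell marker cells. The imprinted RNA H19 passed as well (edgeR adjusted p = 0.000567). On days 1, 3, 5 and 7 it was at 0, 0, 11.9 and 95.8 CPM in diabetic and at 0, 7.20, 21.1 and 78.4 CPM in control members. From control day 3 to control day 7, H19 also rose in other cells. It went from 0.889 to 25.6 CPM in T cell marker cells, from 0.566 to 37.1 CPM in neutrophil marker cells and from 6.91 to 66.7 CPM in the other C1q-high cells. Cp, the ferroxidase ceruloplasmin, and Pmp22 were further rises of this kind. The chaperone gene Hsph1 also rose, with a mean of 126 CPM in members and 326 CPM in T cell marker cells.

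By lists, with a median of 0.01 per day over all genes, interferon-stimulated genes had 0 of 20 passed and 19 negative changes (median -0.17 per day), and inflammatory genes 1 of 24 that fell, Ptgs2, and 19 negative changes (median -0.12). With genes of the rule left out, 0 of 18 lipid handling genes passed and 15 were positive (0.12), and of 13 resident genes 0 passed and 13 were positive (0.09). Efferocytosis genes had 0 of 18 passed and 13 positive changes (0.09), and growth factor genes 1 of 19 that fell, Tgfbi. Of 17 cell cycle genes 0 passed and 15 were positive (0.19). Hsph1 was the 1 of 15 heat shock genes that rose, and Cp the 1 of 14 iron and heme genes. Over 20 alternative settings the median stayed negative for the interferon-stimulated list (-0.23 to -0.03) and positive for lipid handling (0.05 to 0.13). It took either sign for the inflammatory (-0.13 to 0.04), resident (-0.07 to 0.19) and cell cycle lists (-0.02 to 0.21). The monocyte markers as a set were at 1373 to 2767 CPM in the members of days 1 and 3 used here and at 542 to 715 CPM on day 7.

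Whether the wound types diverged with day was tested by the day by wound type term over the 6 libraries of days 3, 5 and 7. With edgeR's quasi-likelihood test, 0 of 9602 genes passed (0%), 211 (2.2%) had an unadjusted p under 0.05, and DESeq2 also called 0. This does not show that the courses of the wound types were alike.

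Finally, the difference between diabetic and control members was set against the same difference in the other C1q-high cells of the same libraries. Of 11221 genes, 1 differed (0.00891%), and 387 (3.45%) had an unadjusted p under 0.05. The gene was Ppbp, a platelet and monocyte chemokine, with a difference of differences of -2.18 on the log2 scale (SE 0.25, edgeR adjusted p = 0.000635). In members it stood at 36.5, 22.7 and 15.4 CPM in diabetic and 64.3, 70.0 and 24.3 CPM in control wounds on days 3, 5 and 7, and in the other C1q-high cells at 134, 136 and 73.8 CPM against 38.2, 96.0 and 24.3 CPM. Diabetic wounds thus had less Ppbp in members and more in the other C1q-high cells than control wounds, and without the diabetic day 7 library 0 genes passed.

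Rsad2 had the second smallest p among the positive terms of that test (0.77, SE 0.15, edgeR adjusted p = 0.16) and did not pass. Of the 8 genes higher in diabetic members, none was therefore shown to differ more between wound types in members than in the other C1q-high cells. Ccl8, Vcam1 and Mertk also did not pass there, with terms of 0.19, -0.39 and 0.15.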

How the data were processed

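The tables deposited by the authors hold raw whole-number UMI counts for each gene in each cell, not normalized, in 1 table per library. Per the methods, reads from BD Rhapsody capture were trimmed with fastp (0.20.1), assigned to cells with UMI-tools and aligned by STAR under an Ensembl annotation; the series record names 10X and the submitters' processing notes list mm9, and this could not be settled. Gene names matched GENCODE M21 of GRCm38 in 98.3% of 21755 cases, and coordinates are from it.

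Cells with over 200 non-mitochondrial genes and under 20% mitochondrial UMIs were kept. The members, the gene lists and the named genes were chosen with earlier results of these data known. Counts were summed per library and class in Python 3.11.15 (numpy 2.4.6, pandas 2.3.3, scipy 1.17.1, scanpy 1.11.5) and scaled to CPM. T cell marker cells had at least 20 marker UMIs per 10000; neutrophil marker cells had the same rate over 5 genes (Csf3r, Cxcr2, Retnlg, Mmp8 and G0s2). Scrublet marked 68 of 35158 cells as doublets, 20 of them members, and 0 cells in the diabetic day 1 and control day 5 libraries. Its calls were judged unreliable and were not used, so doublets stayed in. The top 5% of its scores held 6.18% of members, and whether these scores find doublets was not tested.

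Tests used edgeR 4.0.16 (glmQLFit, glmQLFTest, TMM, filterByExpr) in R 4.3.3, on libraries with at least 20 members. Benjamini-Hochberg adjustment covered all genes tested, with a threshold of 0.05. DESeq2 1.42.0 was run beside edgeR. The edgeR fits were also run on data simulated from the means and library sizes of these libraries, and that outcome is not given here. P-values measure only the spread between these libraries. Genes named are the 5 markers, the genes of the rule, up to 10 past the threshold in each direction (or the smallest p, up to 5), the 4 most abundant of each list, the 10 steadiest in each direction against other C1q-high cells, and others chosen after their values were seen; 3 of these genes are not reported here. Intervals and floors (3 counts) cover counting error only. Alternatives were other thresholds, depths and filters, other normalization, no day term, and leaving out libraries.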

Additional observations from a re-analysis of the deposited data

Results flagged for a closer look

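The difference between diabetic and control wounds for Ppbp in members minus that in the other C1q-high cells, -2.18 on the log2 scale, was singled out because the 2 cell classes differed in the effect by a test of the interaction itself (edgeR quasi-likelihood test, adjusted p = 0.000635). Members in the diabetic library were below those of the control library on days 3, 5 and 7, and the other C1q-high cells above. On day 1, which did not enter the test, Ppbp was at 13.5 CPM in diabetic and 404 CPM in control members, and at 592 and 1555 CPM in the other C1q-high cells. Under no filter on low counts 18 genes passed the same test, and leaving out 1 library at a time left 0 to 4.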

How the results depend on the processing

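Choice of members set the size of the shares. The diabetic minus control difference in the share of cells was -0.204, -3.05, -22.2 and -18.3 percentage points on days 1, 3, 5 and 7. With members by Igf1 alone it was 0.0177 (reversed on day 1), -0.469, -8.77 and -5.60. Without members over 10 marker UMIs of other cell types per 10000 it was -0.832 on day 3, -20.2 on day 5 and 0.633 on day 7, reversed with 27 diabetic and 5 control members left. On days 5 and 7 it was -19.4 and -12.9 with a C1q threshold of 40, -15.6 and -9.87 with an Igf1 and Gdf15 threshold of 8, and -15.3 and -10.8 after thinning to 1000 UMIs. On day 5 it was -16.4 with Gdf15 alone and -24.2 with at least 1000 UMIs per cell. Between wound types 9 genes passed, 204 with no filter on low counts, 35 with DESeq2 (7 of the 9), 0 without the day term that pairs the libraries of a day, 37 without both day 5 libraries, 1 with a C1q threshold of 40, 18 with the threshold of 8, 29 with Igf1 alone, 4 without the top 5% of Scrublet scores, and 15 without members high in T cell or neutrophil markers (added after seeing the data). Leaving out 1 library left 19 to 109 (109 without diabetic day 3, 75 without diabetic day 5, 19 without diabetic day 7, 55, 44 and 22 without control days 3, 5 and 7). All 9 kept their direction wherever tested, and Rsad2 passed in 18 of 20 alternatives. With day 55 passed, 209 with no filter, 83 with DESeq2, 36 with the threshold of 8 and 4 with Igf1 alone, where Ppbp (0.0621 per day) and Ptgs2 (0.0442 per day) reversed. Leaving out 1 library left 10 to 66 (18 without diabetic day 7, 33 without control day 3, 10 without control day 7). For the class difference 1 gene passed, 18 with no filter, and 0 to 4 without 1 library. For the day by wound type term 0 passed, 16 with no filter, and 0 to 15 without 1 library. The tests on members without other-type markers were not run, since 0 and 3 libraries qualified. The causes were not tested. Day 1 is limited by its few members, 14 in the diabetic and 22 in the control library.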
